A study of Homo sapiens with 6 samples.

Results

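The ENO1 libraries were 2 of 6 CUT&Tag libraries made from HepG2, an established human liver cancer line. All peaks that the authors deposited for ENO1 were taken, on all sequences named in the lists: 1818 in replicate 1 and 1395 in replicate 2, or 3213 of the 27419 peaks in the 6 lists. Peaks that shared at least 1 bp between the replicates were merged into 925 regions, of which 768 lay on the 24 chromosomes and 157 on other sequences. The ENO1 group was HepG2 cells incubated with an antibody to ENO1; the groups used for comparison were HepG2 cells incubated with an antibody to H4K12la, histone H4 lactylated at lysine 12, or to HDAC1, a histone deacetylase, with 2 libraries each. The labels name the tissue as liver and the cell type as hepatocellular carcinoma and give no treatment or genetic change for any group. Nothing in them ties a replicate to a culture of its own, and differences between replicates may be technical only. No library with a control antibody was analysed here.

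ENO1, or alpha-enolase, is the enzyme of glycolysis that turns phosphoglycerate into phosphoenolpyruvate, and most of it resides in the cytosol. A shorter protein from the same gene is found in the nucleus and is known as a repressor of MYC. In CUT&Tag an antibody brings a transposase to the place where its target sits, and the tagged DNA is sequenced, so a peak marks a place where tagged fragments pile up above the surroundings. The series was designed around ENO1 and HDAC1 as partners in histone lactylation, a modification fed by the lactate that glycolysis produces.

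Few ENO1 regions reached a gene start listed in the RefSeq promoter set. That set covers 15843 of 19866 protein-coding genes (79.7%), and starts outside it were not counted. Of 35116 RefSeq promoter windows on GRCh38.p14, each running from 250 bases before to 50 after a transcription start, 4 (0.0114%) shared a base with a region. They are shown because they are the only gene starts of that table under a region. All 4 belong to families of closely similar copies. In lower case are the bases of the window, and in capitals those under a peak of both replicates, read 5′ to 3′ along the gene. FAM230E (chr22:18733685-18733984, plus strand) and FAM230H (chr22:21326587-21326886, minus strand) are long non-coding RNA genes of 1 family, FAM27E4 (chr9:61856455-61856754, plus strand) is a long non-coding RNA gene, and TAF11L3 (chr5:17518117-17518416, plus strand) belongs to a family of protein-coding genes that resemble the transcription factor subunit TAF11.
FAM230E: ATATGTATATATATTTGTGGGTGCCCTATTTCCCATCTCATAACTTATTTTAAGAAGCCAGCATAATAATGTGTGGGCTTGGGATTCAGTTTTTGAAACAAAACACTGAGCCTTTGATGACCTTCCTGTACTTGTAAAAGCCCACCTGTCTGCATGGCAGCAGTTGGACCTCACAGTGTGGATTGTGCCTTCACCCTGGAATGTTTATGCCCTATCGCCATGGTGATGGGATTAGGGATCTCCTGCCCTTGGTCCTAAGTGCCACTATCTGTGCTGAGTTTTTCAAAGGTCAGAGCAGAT
FAM230H: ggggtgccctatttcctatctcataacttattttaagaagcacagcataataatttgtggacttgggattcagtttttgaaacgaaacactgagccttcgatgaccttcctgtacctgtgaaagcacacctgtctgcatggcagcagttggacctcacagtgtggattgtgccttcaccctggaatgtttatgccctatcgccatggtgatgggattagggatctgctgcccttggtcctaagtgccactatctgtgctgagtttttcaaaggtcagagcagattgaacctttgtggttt
FAM27E4: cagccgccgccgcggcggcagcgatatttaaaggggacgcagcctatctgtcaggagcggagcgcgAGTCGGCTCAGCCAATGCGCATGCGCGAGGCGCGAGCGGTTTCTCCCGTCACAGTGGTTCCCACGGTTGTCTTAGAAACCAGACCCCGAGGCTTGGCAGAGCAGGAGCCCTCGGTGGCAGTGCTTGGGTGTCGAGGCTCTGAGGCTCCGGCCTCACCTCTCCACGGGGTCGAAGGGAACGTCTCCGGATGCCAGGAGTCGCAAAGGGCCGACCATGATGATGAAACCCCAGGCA
TAF11L3: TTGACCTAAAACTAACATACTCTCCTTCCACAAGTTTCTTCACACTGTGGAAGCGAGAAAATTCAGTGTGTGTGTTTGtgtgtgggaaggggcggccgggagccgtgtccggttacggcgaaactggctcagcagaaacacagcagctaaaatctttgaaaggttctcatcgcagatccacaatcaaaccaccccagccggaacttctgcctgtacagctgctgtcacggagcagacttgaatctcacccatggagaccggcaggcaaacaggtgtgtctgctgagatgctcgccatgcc

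The whole FAM230E window, 300 bases, lay under a peak of each replicate. Its peaks had a fold enrichment of 9.47 in replicate 1 and 7.41 in replicate 2. Fold is the authors' ratio of signal at the summit to the peak caller's background, taken here to have 1 added to each. Folds are not scaled between the lists, so each is read within its own list. The FAM230E and FAM230H windows were identical at 274 of 283 aligned bases (96.8%), with 34 gap positions. At FAM230H the region reached the window through replicate 2 alone, over 102 bases, and the summits stood 389 and 380 bases from the start, at 9.05-fold and 8.20-fold. At FAM27E4, 234 bases lay under both replicates' peaks, at 9.59-fold and 9.04-fold. TAF11L3 had 78 such bases and the lowest values, 5.20-fold and 3.43-fold. The sources used here do not state how reads matching several copies were assigned, so the copy that gave the signal is uncertain. The letters CACGTG, the E-box, are the same on both strands; they were present in none of these 4 windows and in 7.26% of all windows. CCAAT, on either strand, was present in FAM27E4 and in 34.6% of all windows.

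No mature miRNA lay under a region of both replicates. The only miRNA genes under any ENO1 peak were 5 tandem copies of MIR941 on chromosome 20 (63919495 to 63919936), which share 1 mature sequence, shown with its seed in capitals.
hsa-miR-941: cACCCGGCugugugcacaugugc
They lay under a single peak of replicate 1 (63919467 to 63920266), at 4.35-fold with a −log10 q of 4.19 and no peak of replicate 2. That peak is near the weak end of its list.

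The fold and the p-value of a peak together give the whole number of reads or fragments piled at its summit, here called the stack height, and the background height it was set against. As 1 is added to both in the fold, the plain ratio of stack to background is larger than the fold. A whole number was recovered for all 3213 peaks, within 0.007 of the deposited −log10 p. The median stack was 23 in replicate 1 and 30 in replicate 2, and the median background 2.66 and 3.59. A Poisson 95% interval for a stack of 23 is 14.6 to 34.5 and for 30 it is 20.2 to 42.8, so the fold of a typical peak is known only roughly. The lowest background, the level the caller took for the whole genome, was 1.06 and 1.14, and 8.03% and 5.23% of peaks were set against it. Intervals here and below cover counting error only.

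Replicates were compared first for which peaks they shared. In replicate 1, 946 of 1818 peaks (52.0%, Wilson 95% interval 49.7 to 54.3) overlapped a peak of replicate 2, and in replicate 2, 925 of 1395 (66.3%, 63.8 to 68.7) overlapped a peak of replicate 1. On sequences outside the chromosomes the shares were higher, 72.6% and 76.2%. Peaks found in both replicates were wider than peaks found in 1: the median width was 525 bp for shared and 347 bp for unshared peaks of replicate 1, and 573 bp and 443 bp in replicate 2. The shortest peak was 269 bp in replicate 1 and 345 bp in replicate 2, so the lists did not have the same minimum. Wider peaks also have more bases with which to overlap.

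Shared peaks stood taller by a larger factor than their fold shows. The median stack was 44 for shared and 16 for unshared peaks of replicate 1, and 47 and 16 in replicate 2. The background differed as well, with medians of 4.77 for shared and 2.01 for unshared peaks in replicate 1, and 5.37 and 1.95 in replicate 2. The fold therefore separated the classes less: its median was 6.76 for shared and 5.26 for unshared peaks of replicate 1, and 6.22 and 5.27 in replicate 2. The lowest folds of each list, 1.33 and 1.20, belonged to shared peaks. The median −log10 q was 19.2 for shared and 5.91 for unshared peaks in replicate 1, and 20.2 and 5.95 in replicate 2. These are differences within each list, alike in direction in both; peaks of a library are not replicates, so no test was made.

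**Figure D1:**
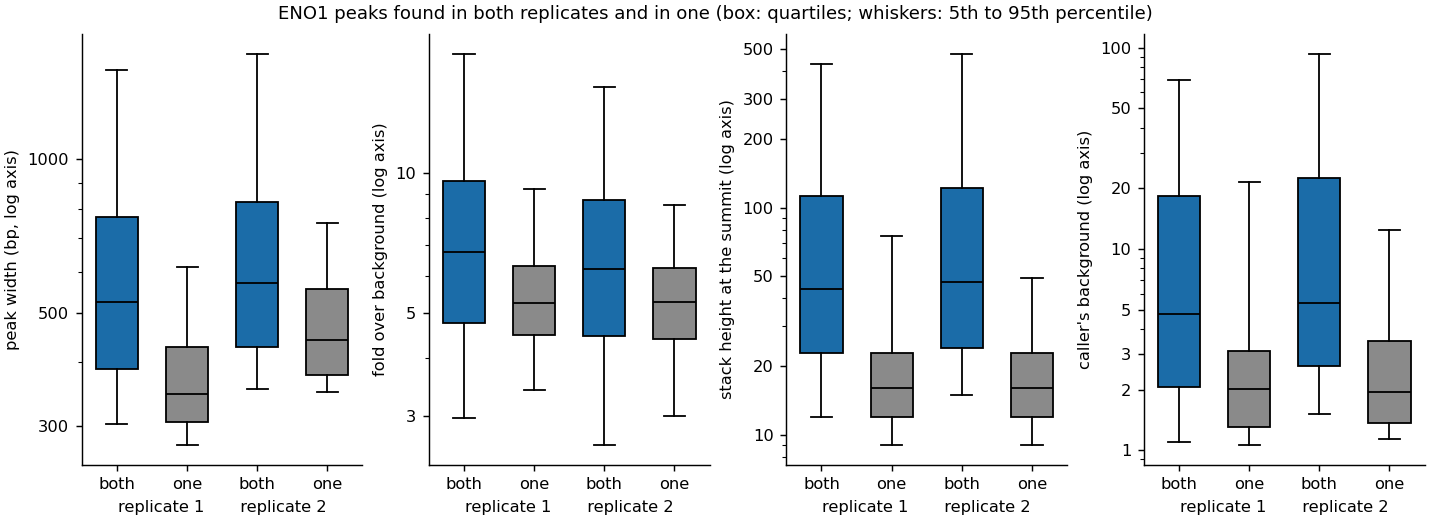
Width (bp), fold over background, stack height and background of ENO1 peaks found in both replicates (blue) and in 1 replicate (grey), each on a log axis, for replicates 1 and 2; boxes show quartiles with the median, whiskers the 5th and 95th percentiles. Shared peaks have the higher median in all 4 measures in both lists, with median stacks of 44 and 47 against 16 and 16. The boxes for width, fold and background overlap.

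Overlap rose with the strength of the call. Among peaks with a −log10 q of 2 to 5, 18.4% of replicate 1 (77 of 418) and 26.5% of replicate 2 (63 of 238) were shared. From 10 to 20 the shares were 61.4% and 70.0%, and above 50 they were 95.3% (245 of 257) and 99.1% (227 of 229). Their Wilson 95% intervals, 92.0 to 97.3 and 96.9 to 99.8, cover counting error and not variation between replicates. Peaks of a library are not independent, so the rise was not tested. Of the unshared peaks, 20.8% in replicate 1 and 24.7% in replicate 2 had a peak of the other replicate within 10 kb.

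Summits of shared peaks fell close together. Over the 925 regions the summits of both replicates were a median of 26 bp apart, 608 (65.7%) were within 50 bp, and 32 were over 500 bp apart, up to 1844 bp. Within a peak, the summit of shared peaks stood a median of 18.3% and 18.2% of the width from the centre in replicates 1 and 2, and that of unshared peaks 20.5% and 24.1%. The summit lay in the middle of 3 equal parts in 45.2% of shared and 39.7% of unshared peaks in replicate 1, and in 45.6% and 33.6% in replicate 2. Rank correlation across the 925 regions was 0.910 for fold, 0.958 for stack and 0.981 for background; regions share their libraries and are not independent.

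The strongest peaks found in 1 replicate lay mostly outside protein-coding genes, though some were inside genes of other kinds. In replicate 1 the highest, 21.1-fold with a stack of 145, was on chromosome 1 (236097111 to 236097399), 32.0 kb from NID1, which encodes the basement membrane protein nidogen. The next were on the unplaced sequence KI270442.1, at 19.8-fold, and on chromosome 9 (70038198 to 70038520), inside LOC124902179 and 5.06 kb from MAMDC2, at 18.4-fold. Replicate 2 had 17.2-fold on chromosome 8 (33011465 to 33012407), inside LOC105379362 and between NRG1, a growth factor gene, and POFUT3. It had 16.4-fold on chromosome 10 (41133457 to 41134200) between ZNF37A and ZNF33B, and 12.4-fold on chromosome 17 (22977560 to 22978087) between KCNJ18 and WSB1. The 289 bp and 323 bp of the chromosome 1 and 9 peaks are near the minimum of their list.

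Shared and unshared peaks were also counted against the other antibodies. Of the shared ENO1 peaks, 3.07% in replicate 1 (29 of 946) and 3.14% in replicate 2 (29 of 925) overlapped no peak in the 4 H4K12la and HDAC1 libraries, and 58.6% and 59.0% overlapped a peak in all 4. Of the unshared peaks, 44.7% (390 of 872) and 38.3% (180 of 470) overlapped none, and 6.77% and 8.94% a peak in all 4.

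Regions were spread unevenly over the chromosomes. Chromosome 1 held 102, chromosome 10 held 77, Y held 69 and chromosome 5 held 64 of the 768. Chromosomes 15, X, 14 and 18 held 5, 7, 7 and 7. Per length, Y had most, 12.1 regions per 10 Mb, then chromosomes 19 (8.19), 21 (7.49), 22 (6.10), 10 (5.76) and 20 (5.60). X had fewest, 0.449 per 10 Mb, against 2.49 over all chromosomes. A length here runs to the last annotated gene or peak.

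Peaks found in 1 replicate were distributed differently from the regions on some chromosomes. Chromosome 2 held 26 regions (3.39%) but 78 unshared peaks of replicate 1 (9.63%) and 30 of replicate 2 (7.13%). On Y, 69.7% of the replicate 1 peaks and 85.2% of the replicate 2 peaks were shared, and on chromosome 17 63.6% and 86.8%. On chromosome 13 the shares were 22.2% and 25%, and on chromosome 14 25.9% and 26.9%. Chromosome 3 held the region with the second highest lower fold, 24.4, among only 11 regions.

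**Figure D2:**
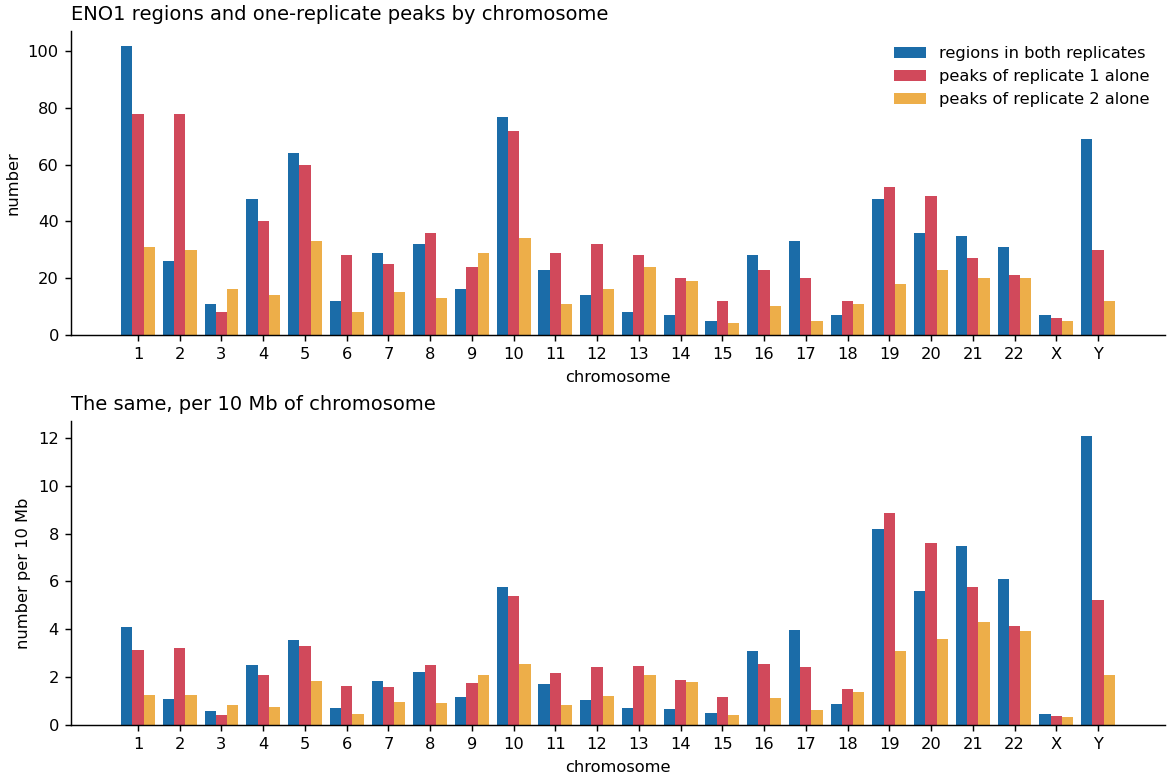
Number of ENO1 regions found in both replicates (blue) and of peaks found in replicate 1 alone (red) or replicate 2 alone (yellow) on each chromosome, above as counts and below per 10 Mb of chromosome. Chromosome 1 has the most regions, 102, and Y the most per length, 12.1 per 10 Mb.

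Along the chromosomes the regions gathered into clusters. A cluster was 3 or more regions with gaps of up to 100 kb. There were 58 on 17 chromosomes, holding 433 of the 768 regions (56.4%, Wilson 95% interval 52.8 to 59.8) within 7.95 Mb, or 0.258% of the chromosome length. Of the others, 245 stood alone and 90 were in 45 pairs. The nearest other region was a median of 28.1 kb away, and within 10 kb for 267 regions (34.8%). The chromosome length divided by the regions gives 4020 kb. That is a mean spacing and not a distance to the nearer neighbour, so it is an unlike measure. Clustered and other regions had like folds, with medians of 6.68 for clustered and 7.28 for other regions in replicate 1, and 6.02 and 6.57 in replicate 2. Of the unshared peaks, 125 of 810 (15.4%) in replicate 1 and 67 of 421 (15.9%) in replicate 2 fell within the bounds of these clusters, which the shared peaks set.

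The cluster with most regions, 31 within 995 kb, was on chromosome 10 (39986324 to 40981541) in a stretch without protein-coding genes between the zinc finger genes ZNF37A and ZNF33B, and its folds ran from 6.33 to 21.9 in replicate 1 and from 5.38 to 19.6 in replicate 2. Its bounds also held 15 and 16 unshared peaks of replicates 1 and 2. On Y, 26 regions lay within 177 kb (56674580 to 56851162), at lower folds of 2.08 to 7.40 and 1.88 to 6.30. They lay beyond CDY1, the last protein-coding gene that the gene table lists on Y. Distances to genes on Y rest on the genes listed there. A second Y cluster of 21 regions (10648024 to 11014812) lay between TSPY10 and USP9Y. Not every large cluster was outside genes: one on chromosome 1 (2652185 to 2849489) held 16 regions within 197 kb, of which 15 were inside the protein-coding gene TTC34.

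Chromosome 1 also had 2 clusters of 15 (124261078 to 124757970 and 143184829 to 143264795) in the 22.4 Mb between LINC02798, which the gene table lists as protein-coding, and the histone gene H3-7. That stretch held 65 regions in all, more than any other. Chromosome 4 held 15 within 63.6 kb (49091449 to 49155089) between CWH43 and DCUN1D4. Counted by the stretch between neighbouring protein-coding genes, the 670 regions outside genes lay in 151 of 19890 stretches. The 18 stretches with 10 or more regions held 450 of them, 58.6% of all 768.

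A further cluster of 15 regions lay at the end of chromosome 10 (133664732 to 133787434), beyond FRG2B. Its 14 steps from region to region ran from 2.57 to 53.6 kb, with a median of 3.42 kb. Of these regions, 12 lay on 12 different annotated copies of DUX4L, pseudogenes of the DUX4 gene that sits in a tandem repeat at the ends of chromosomes 4 and 10. On most copies folds were low, 2.60 to 3.90 in replicate 1 for 9 of the 12. They were higher at DUX4L25 (8.88 and 8.15), DUX4L13 (9.14 and 6.46) and DUX4L29 (7.06 and 4.71). The cluster's highest folds lay off these copies, at 12.9 and 11.7 (133762834 to 133763937) and at 13.1 and 9.76 (133786734 to 133787434). On chromosome 4, 8 regions lay at the end, on DUX4L9, DUX4L8, DUX4L7, DUX4L4 and others, and within DUX4 itself. The DUX4 region spanned 2568 bp with stacks of 1266 and 1362 over backgrounds of 87.9 and 119, at 14.3-fold and 11.4-fold. The copies are near-identical, so reads may be shared between them.

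Chromosome ends held 64 regions (8.33%) within 500 kb of 20 of the 48 ends, in windows that make up 0.777% of the length. The end of Y held 16, that of chromosome 10 held 15 and that of chromosome 4 held 8. At 22's end the values reached 21.6-fold and 19.4-fold, 24.3 kb beyond RABL2B, a small GTPase gene.

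**Figure D3:**
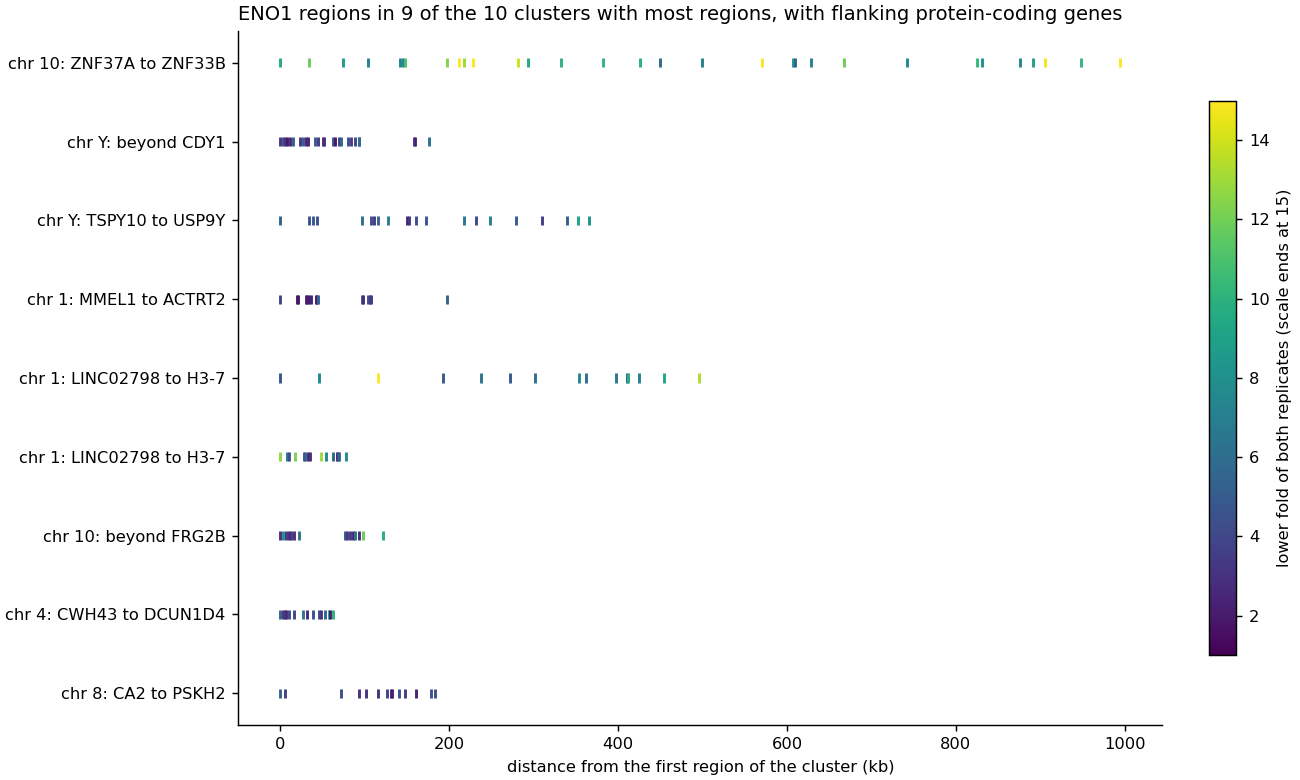
Positions of ENO1 regions in 9 of the 10 clusters with most regions, as distance in kb from the first region of each; each mark is 1 region, coloured by the lower of its folds in both replicates, and the labels name the flanking protein-coding genes. The chromosome 10 cluster between ZNF37A and ZNF33B spreads over 995 kb with high folds, and the one beyond FRG2B is dense and mostly of low fold.

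Regions were compared by their place relative to protein-coding genes. Inside gene bodies lay 98 of the 768 regions (12.8%, Wilson 95% interval 10.6 to 15.3), another 100 (13.0%) lay outside within 50 kb, and 570 (74.2%) were farther away. Median folds were 5.66 and 5.29 inside genes in replicates 1 and 2, 6.62 and 5.65 within 50 kb, and 7.11 and 6.57 farther away. Median stacks were 33 and 32.5 inside genes, 41.5 and 44.5 within 50 kb, and 36.5 and 40 farther away. The background was lower far from genes, at medians of 2.84 and 3.79, than inside them, at 4.71 and 5.20. Of the 117 chromosome regions with at least 10-fold in both replicates, 95 were over 50 kb from protein-coding genes and 11 inside them.

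**Figure D4:**
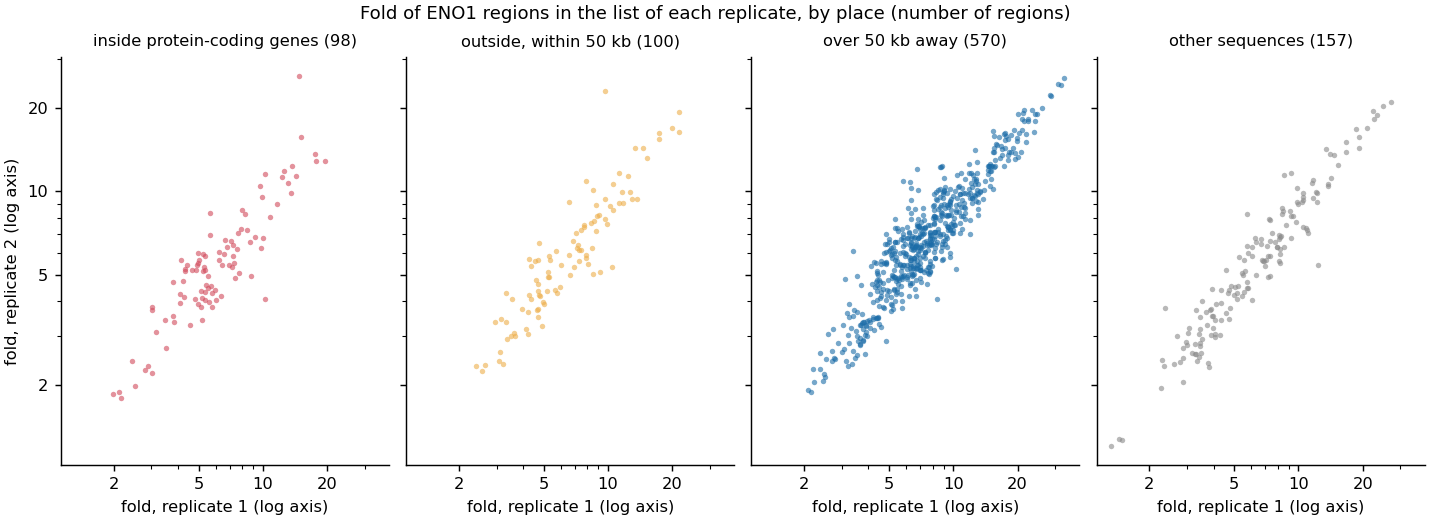
Fold of each ENO1 region in replicate 1 (horizontal) and replicate 2 (vertical), both on log axes, in panels by place: inside protein-coding genes, outside within 50 kb, over 50 kb away, and on sequences other than the chromosomes. The points form a band in every panel, and 95 of the 117 chromosome regions with at least 10-fold in both replicates are in the panel for over 50 kb.

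The replicates differed in how many unshared peaks fell in genes. In replicate 1, 214 of 810 unshared chromosome peaks (26.4%, Wilson 95% interval 23.5 to 29.6) lay inside protein-coding genes, in replicate 2 only 51 of 421 (12.1%, 9.34 to 15.6). For shared peaks the share was 12.8% in each. Shared peaks are overlapping places of both lists, so their shares are alike by construction.

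A region of both replicates lay in the body of 80 of 19866 protein-coding genes (0.403%). Replicate 1 alone gave 258 genes (1.30%) and replicate 2 alone 126 (0.634%). Genes with a region were longer, with a median length of 80.9 kb against 24.5 kb over all, and 47.5% of them exceeded 100 kb against 16.9% of all. Longer bodies offer more room for a peak, and whether that accounts for the difference was not tested. Of the 59 with a known strand, the region lay in the first of 4 equal parts of the body in 9, the second in 13, the third in 20 and the last in 17, and within 1 kb of the start in 2. Exons and introns were not annotated in the tables used here.

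Gene bodies with the strongest regions carried out varied functions. LRRC27, a leucine-rich repeat gene, led with 15-fold and 15.7-fold on chromosome 10 (132364334 to 132364911), from stacks of 141 and 148 over a background of 8.48 in each replicate. ACSL3, which activates long-chain fatty acids, had 14.7-fold and 26.2-fold (chromosome 2, 222866190 to 222866896), from stacks of 54 and 329.

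SERINC2, a serine incorporator gene, had 17.7-fold and 12.9-fold (chromosome 1, 31431753 to 31432202), and CLPTM1L, a gene next to TERT, 19.5-fold and 12.9-fold (chromosome 5, 1333040 to 1333795). TERT, the telomerase subunit, held a weaker region of 5.79-fold and 4.31-fold, and was picked after its values were seen. GPI, the glycolytic enzyme that acts just after hexokinase, had 13.7-fold and 12.3-fold (chromosome 19, 34391361 to 34392691), from stacks of 108 and 109 over backgrounds of 6.95 and 7.95. Its region was 1331 bp wide, 32.3 kb from the gene's start, and overlapped a peak in all 4 of the other libraries. These 5 genes were alike in that both replicates passed 12-fold.

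Next came TMEM242 (12.5-fold and 11.8-fold), whose product helps to assemble the mitochondrial ATP synthase, and the DUX4 region described above. A region on chromosome 2 (109199340 to 109199865; 12.3-fold and 11.3-fold) lay in SH3RF3, a ubiquitin ligase gene, and within the long span that the gene table gives RANBP2. MUC3A, an intestinal mucin with tandem repeats, had 13.1-fold and 10.7-fold, and DOCK1, which activates the GTPase Rac, 10.2-fold and 11.6-fold. OPRL1, the nociceptin receptor gene, had 13.5-fold and 9.85-fold, MICAL3, which acts on actin, 9.71-fold and 10.5-fold, and RPTOR, the raptor subunit of the mTOR complex, 9.88-fold and 9.57-fold.

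Only 5 of the 80 genes held more than 1 region. TTC34, a tetratricopeptide repeat gene on chromosome 1, held 15 within 108 kb (2652185 to 2760033). Its folds were low, 1.99 to 6.91 in replicate 1 and 1.79 to 5.43 in replicate 2, with stacks of 107 to 412 and 158 to 607 over backgrounds of 33.1 to 82.2 and 58.1 to 154. PTPRN2, a phosphatase-like gene of secretory granules on chromosome 7, held 3, at 5.36-fold to 11.7-fold and 5.86-fold to 8.99-fold.

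Genes of glycolysis and lactate were asked next because ENO1 is one of them. Of 34, only GPI held a region (2.94%, against 0.403% of all genes), and PFKP, a phosphofructokinase gene, had a peak of replicate 1 alone (4.35-fold, stack 13). The gene ENO1 (chromosome 1, 8861000 to 8878686) had no region within 5679 kb; its nearest peaks were 1205 kb away in replicate 1 and 5679 kb in replicate 2. LDHA, which makes lactate, was 7884 kb from the nearest region. MYC was 10463 kb away, with the nearest peaks at 6534 kb and 10463 kb. HDAC1 was 860 kb from the region in SERINC2.

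Over all genes 0.403% held a region, so in short lists a count of 0 is close to that share. None of 31 secreted liver proteins, 22 liver transcription factors, 27 genes of HDAC1 complexes or 19 enzymes of histone lactylation and acetylation held a region. HNF4A, the liver transcription factor, had a peak of replicate 1 alone (3.80-fold, −log10 q 4.13). None of 50 long genes active in neurons held one either, at a median length of 1217 kb, though 6 had a peak in replicate 1 and 1 in replicate 2; DPP10 was highest, at 10.1-fold. Of 517 zinc finger genes none held a region, while 6 had a peak in replicate 1 and 2 in replicate 2, against 1.30% and 0.634% of all genes; ZNF407 was highest, at 6.87-fold. None of 16 common fragile site genes or 53 protocadherins held a region.

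In copied families the counts were too small to tell families apart, as only 0.403% of all genes held a region. Where a family had a region its share was 4.00% to 15.4%, or 0.257% for olfactory receptors. Each such share rests on 1 or 2 genes, and in TAF11L3 only the replicate 2 peak reached the gene body. No region lay in the 29 GOLGA6 and GOLGA8 genes, 13 POTE, 11 TBC1D3, 23 PRAME or 21 FAM90A genes, nor in 7 of the ANKRD20A, 30 and 36 families, 94 keratin-associated proteins or 19 UDP-glucuronosyltransferases. Of these, 1 POTE gene had a peak of replicate 1, and 2 FAM90A genes had one of replicate 1 and 1 of replicate 2. The families with a region were represented by USP17L11 (5.22-fold and 5.95-fold) of 25 deubiquitinase genes, TAF11L7 (4.31-fold and 5.23-fold) and TAF11L3 of 13, NPIPB5 (4.83-fold and 4.07-fold) of 20, NBPF1 (4.30-fold and 5.15-fold) of 14, OR2T6 (5.34-fold and 4.06-fold) of 389 olfactory receptors, and DUX4 of 7.

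Genes that do not code for protein held regions too. They were 37 long non-coding RNA genes of 18010 (0.205%) and 37 pseudogenes of 15416 (0.240%), plus 8 transcribed pseudogenes of 1239 (0.646%). FAM230C (chromosome 13, 18211705 to 18212548) had 20-fold and 19.0-fold, and FAM230D on chromosome 22 had 13.4-fold and 14.4-fold, so several genes of the family shown above carried regions. LOC124903900 had the value of the SERINC2 region, which it overlaps. Of the pseudogenes, DUX4L26 on chromosome 3 had 19.9-fold and 16.9-fold and DUX4L9 10.5-fold and 10.6-fold. DUX4L44 on chromosome 22 had 12.3-fold and 9.05-fold. Of the transcribed pseudogenes, ROCK1P1, a copy of part of the kinase gene ROCK1, had 9.69-fold and 7.97-fold, SEPTIN7P13 6.83-fold and 6.31-fold, and USP17L6P 5.78-fold and 4.30-fold. The immunoglobulin kappa locus held 5 regions on chromosome 2 (89827985 to 89841187), at up to 8.15-fold and 7.69-fold over backgrounds of 48.3 to 73.8 and 69.3 to 111. The T cell receptor beta locus held 1 (6.30-fold and 10.8-fold) and the immunoglobulin lambda locus 1 (5.94-fold and 4.51-fold).

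By the lower of both folds, the 10 highest regions were far from protein-coding genes or on sequences outside the 24 chromosomes. Their summits agreed to within 37 bp. By replicate 2 alone the highest fold was 26.2, in the region inside ACSL3. The lower of both folds reached 25.7 on chromosome 17 (25920036 to 25920475), from stacks of 220 and 181. The chromosome 3 region (93470362 to 93470867) had the tallest nuclear stacks of the list's top 10, 2676 and 2200, over backgrounds of 85.4 and 89.1. Others stood beside TPTE on chromosome 21 (28.4-fold and 22.3-fold, 86.7 kb away) and FAM246B on chromosome 22 (26-fold and 20-fold, 94.5 kb away). Between KCNJ18 and WSB1 lay 3 of the 10, and between OR4C12 and OR4C46, both olfactory receptor genes, lay 1 at 23.3-fold and 19.6-fold. The last on a chromosome was in the cluster between ZNF37A and ZNF33B, 1593 kb from ZNF33B, at 21.5-fold and 19.6-fold. KI270729.1, at 27.2-fold and 21.1-fold, and KI270310.1, at 24.9-fold and 20.3-fold, are listed as sequences of their own, apart from the chromosomes.

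Sequences outside the chromosomes held 226 peaks of replicate 1 (12.4%) and 206 of replicate 2 (14.8%), on 69 and 71 sequences. Their 157 regions lay on 56 sequences, led by GL000225.1 with 30, GL000216.2 with 16 and KI270736.1 with 15. They were wide, with a median of 821 bp, and stood on a high background, at medians of 16.6 and 22.

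The mitochondrial genome was covered by 7 peaks of replicate 1 and 5 of replicate 2, forming 5 regions. Stacks there were 2460 to 3259 in replicate 1 and 3155 to 4457 in replicate 2, including the tallest of each list. Over backgrounds of 1086 to 1896 and 1598 to 2685, folds were 1.33 to 3 and 1.20 to 2.79. The highest folds there, 3 in replicate 1 and 2.79 in replicate 2, were in peaks that end at base 16569, the last.

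ENO1 lists were last set against the other 4 libraries. Peaks over 50 kb from protein-coding genes made up 66.5% and 75.9% of the ENO1 lists, against 17.5% and 12.9% for H4K12la and 25.4% and 35.1% for HDAC1. The mean was 71.2% ± 6.71 for ENO1 (SD, n = 2) and 22.7% ± 9.74 for the others (SD, n = 4). Peaks inside genes made up 19.7% and 12.5% for ENO1, against 63.9% and 67.2% for H4K12la and 53.7% and 44.7% for HDAC1. Peaks on other sequences made up 12.4% and 14.8% for ENO1, against 3.41% and 2.64% for H4K12la and 4.21% and 4.89% for HDAC1. In these 3 measures the ENO1 libraries did not overlap the others.

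A two-sided exact permutation test gave p = 0.0667 for each of the 3, the smallest that 15 allocations allow, so it cannot pass 0.05; adjusted over 6 measures it was 0.133. The share with another peak of the same list within 100 kb was 66.6% and 70.6% for ENO1, against 56.8% to 67.9% for the others (exact permutation p = 0.267, adjusted 0.400). Median width was 415 and 518 bp for ENO1, against 441 to 545 bp (exact permutation p = 0.533). The median distance of the summit from the centre was 19.5% and 19.9% of the width for ENO1, against 18.3% to 19.7% (exact permutation p = 0.333, adjusted 0.400). The lists differ in length, 1395 and 1818 peaks for ENO1 against 4802 to 7773, and several differences moved by over 1.5 times at equal length. With the 1000 highest peaks of each list, ENO1 minus the others was 29.1 percentage points rather than 48.5 for the share over 50 kb from genes, −25.4 rather than −41.2 for the share inside genes, and 4.57 rather than 9.81 for the share on other sequences. For the measures that overlapped in the full lists it was larger: −169 bp rather than −40.2 bp in median width, 23.3 rather than 6.73 points in the share with a neighbour, and 2.01 rather than 0.570 points in the summit's distance. Each of these 6 had an exact permutation p of 0.0667 at equal length. At a −log10 q of 5 or more the neighbour difference was 16.9 points and the summit difference 1.31 (exact permutation p = 0.0667 for each).

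**Figure D5:**
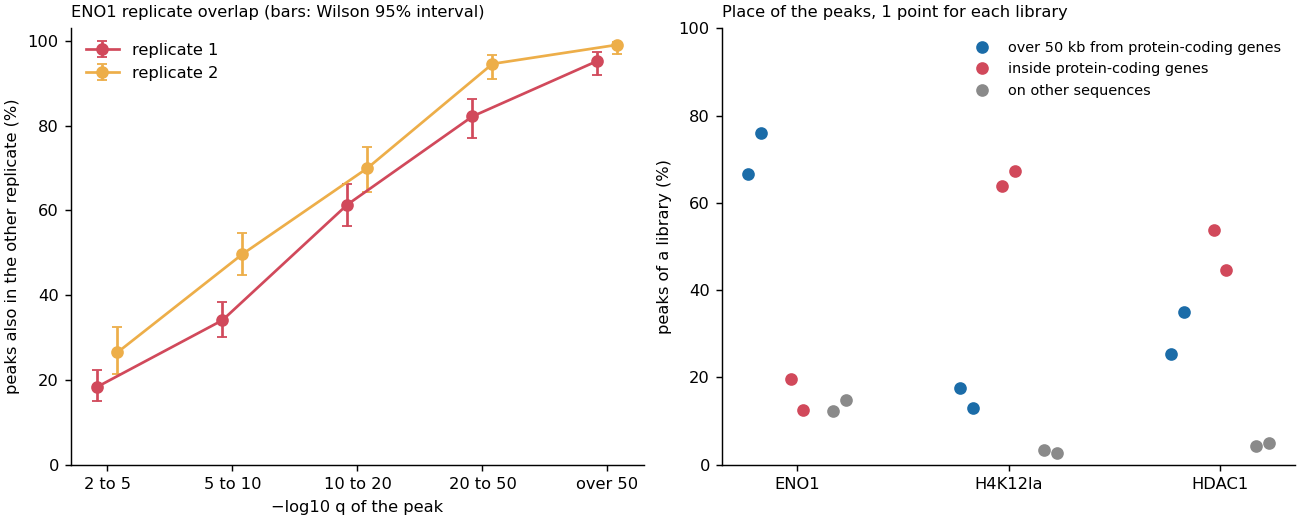
Left, percent of ENO1 peaks that overlap a peak of the other replicate, by −log10 q, with Wilson 95% intervals. Right, percent of each library's peaks over 50 kb from protein-coding genes, inside them, and on sequences other than the chromosomes, with 1 point for each of the 2 libraries of ENO1, H4K12la and HDAC1. Overlap rises from 18.4% and 26.5% to 95.3% and 99.1%, and the ENO1 libraries stand apart at 66.5% and 75.9% over 50 kb from genes.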

How the data were processed

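Peaks of HepG2 CUT&Tag libraries (ENO1, H4K12la and HDAC1, 2 replicates each, grouped by title) came as 1 deposited narrow peak list for each library, so they were called per sample. Per the submitters' processing notes the authors used FastQC, Bowtie2, MACS2 and deepTools with build hg38; the sources used here state no versions, read assignment, removal of duplicates or control library. In the deposited lists the fold is a ratio within a library, the authors' −log10 p-value and q-value have no scaling between libraries, the score follows the q-value, and each list ends at a q of 0.01. Depth is unknown beyond the stack heights. The members and gene lists were chosen with earlier results of these data known.

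Peaks sharing 1 bp were taken as overlapping. Genes came from the RefSeq table of GRCh38.p14, without 718 entries whose coordinates belong to other sequences; promoters and miRNAs came from RefSeq. Stack heights, solved from fold and p under a Poisson tail, were added after the data were seen, and 1 ENO1 peak had a second whole number within the tolerance. Libraries were compared by exact permutation tests with Benjamini-Hochberg adjustment over 6 measures. Genes were named by a rule: the 15 highest and all with 3 or more regions, the 10 strongest regions, the 6 clusters with most regions and their ties, the 3 strongest peaks of 1 replicate, up to 3 genes of each other kind, up to 4 members of each list, and ENO1, HDAC1, LDHA and MYC; 1 gene and 1 cluster that the rule selects are not reported here. Scripts (Python 3.11.15, pandas 2.3.3, scipy 1.17.1, Biopython 1.88) were tested on simulated data.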

Additional observations from a re-analysis of the deposited data

How the results depend on the processing

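The 6 differences between ENO1 and the other libraries kept their direction in 29 of the 31 alternatives that recompute them; none can pass 0.05. The difference in median width (−40.2 bp) turned to 11.2 bp without ENO1 replicate 1 and was −91.8 bp without replicate 2. The difference in the share with a neighbour within 100 kb (6.73 points) turned to −9.36 points at 500 kb and was 14.3 points at 50 kb; the cause was not tested. The replicate block, permuting within a replicate number, leaves a difference as it is by construction and changes only p: for 48.5, −41.2 and 9.81 points it was 0.111 (exact permutation, the smallest that 9 allocations allow); the labels do not say that a number marks a shared batch. Overlap between ENO1 replicates 1 and 2 was 45.8% and 59.7% with at least 50% of each peak shared, 41.5% and 54.1% with summits within 150 bp, 59.3% and 70.4% at a −log10 q of 5 or more, 71.1% and 69.8% for the 1000 highest peaks, and 49.1% for replicate 1 on chromosomes only. Shared minus unshared medians kept their direction throughout: with 50% overlap the width differed by 95 bp in replicate 2 and the −log10 q by 15.4 and 15.1. That q difference was 15.9 and 16.1 at a −log10 q of 5 or more and 11.5 and 12.6 on chromosomes. With all annotated genes, 23.3% of regions lay inside 165 genes. By the lists of replicates 1 and 2 alone, 258 and 126 protein-coding genes held a peak, with 19.7% of replicate 1 peaks inside. Regions in clusters were 47.0% at gaps of 50 kb and 74.6% at 500 kb, and replicate 1 alone had 93 clusters with 51.6% of its peaks. The stack heights limit weak peaks most: a peak absent from a list may hold signal below its threshold.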

Other observations

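Nuclear copies of mitochondrial genes are pseudogenes that arose when mitochondrial DNA entered the chromosomes. They were picked after their values were seen, and 7 of the 925 regions lay over them. The number of such copies in the gene table was not counted, so their share is not known. Of all pseudogenes 0.240% held a region. How reads that match both a copy and the mitochondrial genome were assigned is not stated. On X (126471704 to 126473441), a region over MTCO1P53, MTND4LP1 and MTND4P24 had 6.79-fold and 12-fold in replicates 1 and 2. MTCO1P40 on chromosome 17 had 8.65-fold and 12.2-fold. Inside KIAA0825 on chromosome 5, regions over MTND5P12 (4.42-fold and 5.41-fold) and MTCYBP35 (5.65-fold and 8.34-fold) lay 1.26 kb apart. A region over MTND1P23 and MTND2P28 on chromosome 1 had 5.34-fold and 5.66-fold, and the 2 regions over MTCO1P12 beside them 3.07-fold and 4.13-fold in replicate 1 and 2.43-fold and 3.17-fold in replicate 2.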
